A study of Mus musculus with 6 samples.

Results

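The genes described here write or remove DNA methylation or act beside it, and several of them, DNMT3A, TET2, ASXL1, IDH1, IDH2 and NPM1, are recurrently mutated in human clonal haematopoiesis or myeloid leukaemia: the methyltransferase genes Dnmt1, Dnmt3a and Dnmt3b, the demethylating dioxygenase genes Tet1, Tet2 and Tet3, the isocitrate dehydrogenase genes Idh1 and Idh2, the chromatin adaptor gene Asxl1 and the nucleolar chaperone gene Npm1. They were chosen by symbol, without use of their values, and all 10 were found among the 23420 genes of the count tables. RNA came from bone marrow LSK cells, stem and progenitor cells defined by Sca-1 and c-Kit and by the lack of lineage markers, with 1 library for each of 6 mice. The bcat(ex3)osb group (3 mice, mutant mice below) has constitutive β-catenin signalling in its osteoblasts, which form bone, and the WT group holds 3 wild-type littermates, so the comparison asks whether signalling in a niche cell goes with different transcript levels in blood progenitors. The sources used here do not name the promoter that drives the allele, the age or sex of the mice or any treatment, and no mouse is labelled as carrying a mutation in any of the 10 genes.

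DNA methyltransferases place methyl groups on cytosine, mostly in CpG dinucleotides: Dnmt1 copies the pattern to the new strand at replication, and Dnmt3a and Dnmt3b set it on unmethylated DNA. Tet enzymes oxidise methylcytosine and so start its removal, and they need α-ketoglutarate, the product of Idh1 in the cytosol and of Idh2 in mitochondria. Leukaemic forms of the Idh enzymes make hydroxyglutarate instead, which inhibits Tet enzymes. In haematopoietic stem cells, loss of Dnmt3a or Tet2 favours self-renewal over differentiation, and clones with such mutations expand in the marrow of older people.

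Total counts lay between 15431235 and 19956774 per library, and each of the 10 genes had at least 489 counts in each library. The LSK markers Kit, Cd34 and Flt3 were present in all libraries, and Ly6a, which encodes Sca-1, had 81.5, 65.9 and 75.7 CPM in the mutant libraries, against 148, 162 and 156 CPM in the WT libraries (edgeR adjusted p = 0.312). Of 10 LSK markers, 1 had a positive and 9 a negative log2 fold change of mutant over WT, with a median of -0.42. Ly6a was 1 of 2 among these 10 whose groups did not overlap, beside 14.6% of all genes tested. Its edgeR p was 0.000311 before and 0.312 after adjustment, and 0 of the 10 passed at an adjusted p of 0.05. CPM are counts scaled to a common library size, here by the TMM method. Summed markers of several other cell types did not overlap between the groups. The sums of the T and NK cell, erythroid, megakaryocyte, and osteoblast and stroma lists overlapped. The 11 granulocyte markers summed to 6191 to 10871 CPM in mutant and 1394 to 3112 CPM in WT mice. Mpo alone held 4545 to 6471 CPM of this sum in mutant and 1040.4 to 2597 CPM in WT mice, and 8 markers had positive and 3 negative log2 fold changes, among them Retnlg at -5.62 (edgeR adjusted p = 0.312). The 8 mast cell and basophil markers summed to 246 to 395 CPM in mutant and 63.8 to 86.5 CPM in WT mice. The 8 monocyte and dendritic cell markers summed to 491 to 2102 CPM in mutant and 251 to 393 CPM in WT mice. The 10 B cell markers summed to 74.3 to 603 CPM in mutant and 619.8 to 1090.0 CPM in WT mice, and the 9 macrophage markers in the tables to 21.7 to 93.0 CPM in mutant and 104 to 164 CPM in WT mice. In the B cell list mutant mouse 1, at 603 CPM, lay close to WT mouse 1, at 619.8 CPM. Marker by marker, the groups did not overlap for 5 of 11 granulocyte, 5 of 8 monocyte and dendritic cell and 3 of 8 mast cell and basophil markers. The same held for 4 of 10 B cell and 5 of 9 macrophage markers, beside 14.6% of all genes tested. Among the lists without overlapping sums, 1 marker was at 0 in all mutant libraries, Cd5l of the macrophage list. The part of these cells in the values below was not tested; in RNA from a sorted pool, fewer cells of a type and less RNA per cell cannot be told apart. Short genes took more of the counts in the libraries numbered 2: tested genes in the lowest length quartile held, in mutant and WT mouse 2, 36.2% and 33.5% of their counts, against 21.8% to 25.5% in the other 4 libraries. Mutant mouse 2 also stood apart on the first principal component. Y-linked transcripts marked mutant mice 1 and 2 as male, and Xist marked the other 4 mice as female.

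None of the 10 genes passed edgeR's quasi-likelihood test between mutant and WT LSK cells. Adjusted over the 12653 genes tested, p ran from 0.803 for Tet3 to 0.970 for Npm1, and 0 of 10 passed at 0.05, where 0.00% of all genes did. At an unadjusted p under 0.05 the count was 0 of 10, where 6.56% of all genes passed (3.43% higher and 3.13% lower in mutant mice). DESeq2 called 0 of the 10 and 1.34% of the 13628 genes it tested. Log2 fold changes of mutant over WT lay between -0.31 (Idh1) and 0.39 (Tet3), with 6 positive and 4 negative. Their median was 0.11, beside 0.00220 over all genes tested, and their median size was 0.21, beside 0.24. The 95% interval of the fold change stayed within a 2-fold change in either direction for all 10 genes, and its widest bounds were 0.527-fold (Idh1) and 1.82-fold (Tet3). In CPM the mutant and WT values overlapped for each of the 10 genes, whereas 14.6% of all genes had groups that did not overlap. These p-values measure the spread between 3 mice a group.

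**Figure D1:**
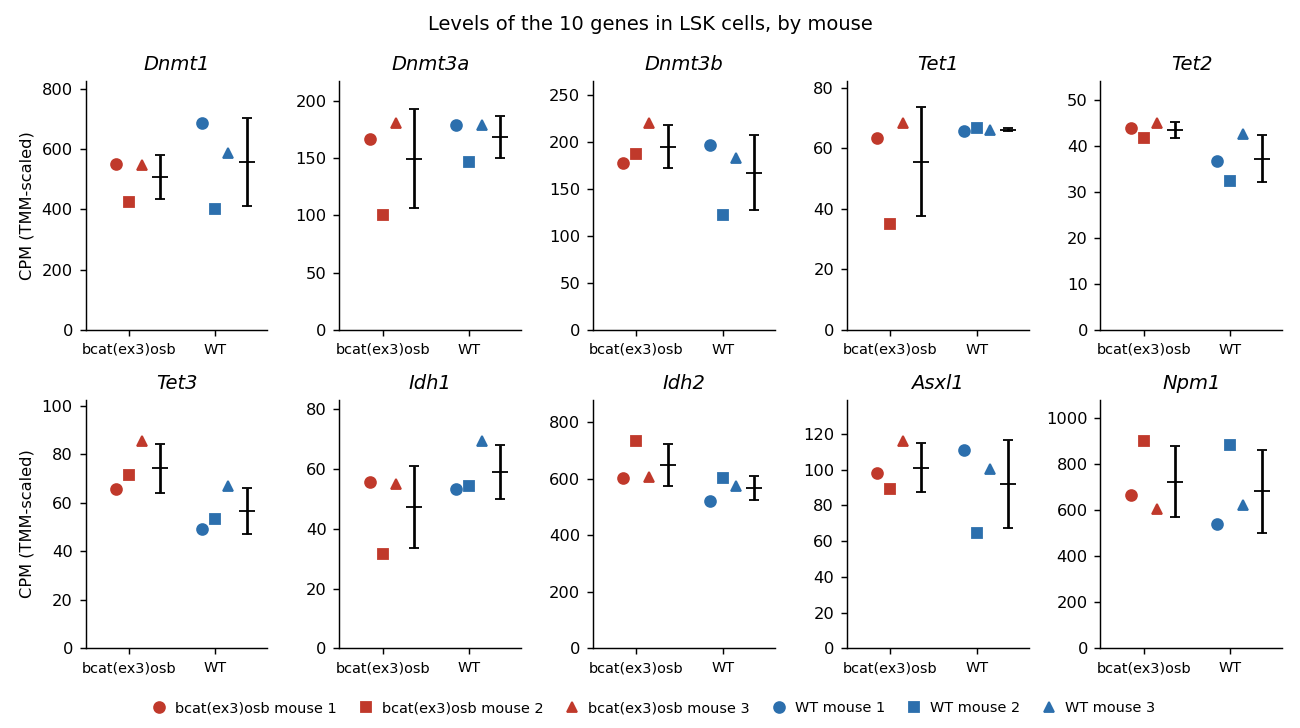
TMM-scaled CPM of the 10 genes (vertical axes, each from 0) in bcat(ex3)osb (left, red) and WT (right, blue) mice. Each symbol is a mouse and the black bar is mean ± SD of 3 mice. The groups overlap in every panel, and mutant mouse 2 (red square) is the lowest of the 6 for Dnmt3a, Tet1 and Idh1.

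**Figure D2:**
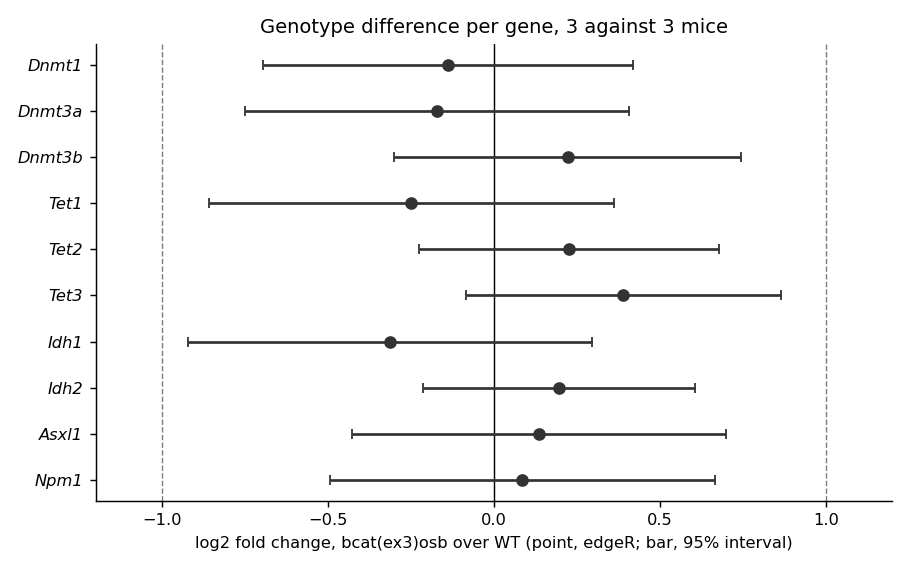
Log2 fold change, bcat(ex3)osb over WT, of each gene by edgeR (point) with its 95% interval (bar). Dashed lines mark a 2-fold change, and all 10 bars lie between them and cross 0.

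Among the methyltransferases, Dnmt1 had the highest level and, per length in FPKM, Dnmt3b exceeded Dnmt3a in each mouse. Dnmt1 (chromosome 9, 20907206 to 20959888), the maintenance enzyme, had 552, 424 and 548 CPM in mutant mice 1, 2 and 3, and 689, 401 and 587 CPM in WT mice 1, 2 and 3. The mouse numbered 2 was the lowest of each group, so that the spread within a group was wider than the gap between the means (508 CPM, SD 73.0, for the mutant and 559 CPM, SD 146, for the WT mice, n = 3 each). The log2 fold change was -0.14 ± 0.24 (SE; edgeR adjusted p = 0.938).

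Dnmt3a (chromosome 12, 3801559 to 3914443), a de novo enzyme and a leading mutated gene of clonal haematopoiesis, had 167, 100.3 and 181 CPM in mutant mice 1, 2 and 3, and 179, 147 and 179 CPM in WT mice. Mutant mouse 2 lay below all other libraries, and mutant mice 1 and 3 lay within or just above the WT range. The log2 fold change was -0.17 ± 0.25 (edgeR adjusted p = 0.931), and without mutant mouse 2 it was 0.05. Dnmt3b (chromosome 2, 153649411 to 153687730), the other de novo enzyme, had 178, 187 and 221 CPM in mutant mice and 197, 122 and 183 CPM in WT mice. Here WT mouse 2 was the low library, and the log2 fold change of 0.22 ± 0.23 (edgeR adjusted p = 0.908) was 0.04 without it.

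Per length, the deposited FPKM (counts scaled by gene length and library total) gave the make-up of the family in each mouse. Dnmt3b made up 28.3%, 35.9% and 32.7% of the summed Dnmt FPKM in mutant mice 1, 2 and 3, against 26.4%, 26.5% and 27.6% in WT mice 1, 2 and 3. The 3 mutant values lay above the 3 WT values, a difference of 5.46 percentage points (exact two-sided permutation p = 0.1). That is the smallest p that 3 against 3 mice allow, and over the 8 family shares computed it was 0.4 after Benjamini-Hochberg adjustment. Dnmt1 held 57.2 ± 2.59% of the family's FPKM in mutant and 61.2 ± 1.84% in WT mice (SD, n = 3 each; exact permutation p = 0.2), and Dnmt3a held 10.5 ± 1.87% in mutant and 12.0 ± 1.73% in WT mice (exact permutation p = 0.4). Dnmt3b is the shortest of the 3 genes at 4327 bases, beside 6304 for Dnmt1 and 9947 for Dnmt3a. The shares were also computed with each library's trend of log2 CPM on gene length removed, and none changed by more than its spread between mice. Beyond this, the part of the short-gene excess of the libraries numbered 2 in these shares was not tested. Leaving out 1 mouse at a time gave differences of 3.67 to 7.47 points. The sum of the family overlapped, at 145, 109 and 160.2 FPKM in mutant and 182.5, 106 and 158 FPKM in WT mice.

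Per length in FPKM, the Tet genes had the lowest levels of the 10, and Tet3, active in early embryos and in many adult tissues, had the smallest p. Tet3 (chromosome 6, 83362373 to 83457208) had 65.6, 71.4 and 85.4 CPM in mutant mice 1, 2 and 3, and 49.4, 53.3 and 67.1 CPM in WT mice. Only WT mouse 3 reached the lower end of the mutant range, passing mutant mouse 1 and no other mutant mouse. The log2 fold change was 0.39 ± 0.21 (SE), a 1.31-fold difference with a 95% interval of 0.943 to 1.82, and the edgeR p was 0.0948 before and 0.803 after adjustment.

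Tet2 (chromosome 3, 133463677 to 133545136), the Tet gene most often mutated in clonal haematopoiesis, had 43.8, 41.6 and 45.1 CPM in mutant mice and 36.7, 32.4 and 42.6 CPM in WT mice. Its level was even among mutant mice (43.5 ± 1.75 CPM) and more spread among WT mice (37.2 ± 5.11 CPM, SD, n = 3 each), and WT mouse 3 lay above mutant mouse 2. The log2 fold change was 0.23 ± 0.20 (edgeR adjusted p = 0.893), and 0.13 without WT mouse 2. Tet1 (chromosome 10, 62804570 to 62887469), best known from embryonic stem cells, was nearly level in WT mice at 65.6, 66.8 and 66.2 CPM. Against these, mutant mice 1 and 3 had 63.4 and 68.5 CPM and mutant mouse 2 had 35.03 CPM. Its log2 fold change of -0.25 ± 0.26 (edgeR adjusted p = 0.908) rested on that library: without mutant mouse 2 it was -0.00447.

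Within the family, Tet1 made up 29.4%, 18.3% and 27.6% of the summed Tet FPKM in mutant mice 1, 2 and 3, against 35.3%, 36.1% and 30.3% in WT mice 1, 2 and 3. The mutant values lay below the WT values without overlap, by 8.78 percentage points on average (exact permutation p = 0.1, the smallest possible, and 0.4 adjusted over the 8 shares). Tet3 held 44.0 ± 4.47% in mutant and 37.1 ± 2.69% in WT mice (SD, n = 3 each; exact permutation p = 0.2), with mutant mouse 1 (39.3%) just below WT mouse 3 (39.7%). Tet2 held 30.9 ± 2.81% in mutant and 29.0 ± 1.92% in WT mice (exact permutation p = 0.4). Tet1 is the longest of the 3 genes, and leaving out 1 mouse at a time gave differences of -10.9 to -5.38 points in its share.

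**Figure D3:**
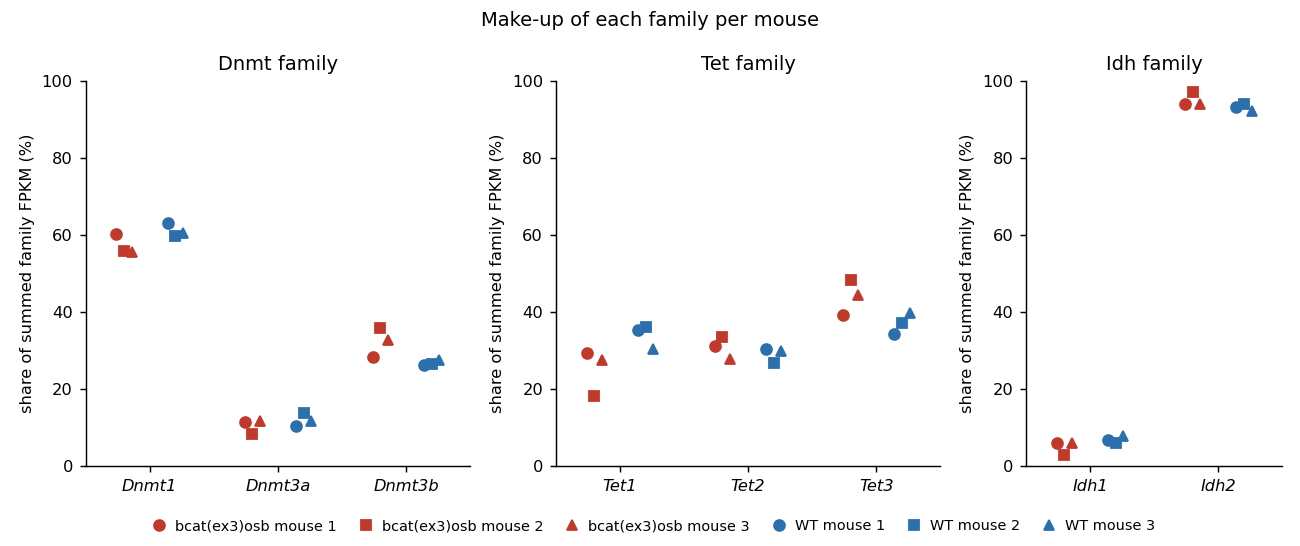
Share of each gene in the summed FPKM of its family (vertical axes, 0 to 100%), for bcat(ex3)osb mice (red, left of each pair) and WT mice (blue). Each symbol is a mouse. The Dnmt3b share lies higher and the Tet1 share lower in the 3 mutant mice than in the 3 WT mice, and the other shares overlap.

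The start regions of the Tet genes are shown because these genes are close relatives with unlike values, and because CpG is the dinucleotide on which methyltransferases and Tet enzymes act. The 250 bases before the start site that RefSeq's table gives (GRCm38.p6) lie at chr10:62887325-62887574 for Tet1, chr3:133544391-133544640 for Tet2 and chr6:83441679-83441928 for Tet3, all on the minus strand. The start site used for Tet2 and Tet3 lies within the gene coordinates given above, whose outer end is farther upstream, and the Tet1 window overlaps the outer end of its gene. The sequences are printed 5′ to 3′ along the gene, with each CpG in capitals.
Tet1: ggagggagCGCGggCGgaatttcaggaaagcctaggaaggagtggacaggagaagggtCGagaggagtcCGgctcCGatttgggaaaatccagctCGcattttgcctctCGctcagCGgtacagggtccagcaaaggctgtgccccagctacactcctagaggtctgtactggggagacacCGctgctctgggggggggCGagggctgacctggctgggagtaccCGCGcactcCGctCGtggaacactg
Tet2: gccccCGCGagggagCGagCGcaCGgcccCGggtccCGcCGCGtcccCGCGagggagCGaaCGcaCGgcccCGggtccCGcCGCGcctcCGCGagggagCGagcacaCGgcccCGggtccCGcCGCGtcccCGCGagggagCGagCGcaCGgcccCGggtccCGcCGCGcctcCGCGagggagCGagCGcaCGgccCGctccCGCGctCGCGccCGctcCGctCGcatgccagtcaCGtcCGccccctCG
Tet3: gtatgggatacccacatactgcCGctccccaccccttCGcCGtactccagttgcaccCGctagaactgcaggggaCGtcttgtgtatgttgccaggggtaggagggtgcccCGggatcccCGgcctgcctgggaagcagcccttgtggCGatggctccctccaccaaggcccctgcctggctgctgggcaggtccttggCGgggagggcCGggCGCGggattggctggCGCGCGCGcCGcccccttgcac
Tet1 and Tet3 had 15 and 17 CpGs in the window and Tet2 had 51, a number that 0.0670% of the 32851 RefSeq windows of this length reach. The median over all windows was 6. Of the 10 genes, 9 had a window in the table, and Npm1 had none there. These 9 genes had 14 windows, some genes more than 1, and windows 1 and 2 of Dnmt3a overlap. The GC box GGGCGG, on either strand, was found in 12 of the 14, beside 32.7% of all windows. CCAAT was found in 5 (33.9% of all windows), CACGTG in 1, of Dnmt3a (6.02%), an E2F site (TTTGGCGC, TTTCGCGC, TTTCCCGC or TTTGCCGC) in 1, of Dnmt1 (1.86%), and TATAAA in 0 (12.4%), each on either strand. GGGCGG itself holds a CpG, the windows were not matched for CpG number, and the part of CpG content in these counts was not tested. DNA methylation itself was not measured in these files.

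The Idh genes differed far more from each other than between genotypes. Idh2 (chromosome 7, 80094845 to 80118608), the mitochondrial enzyme, had 602.7, 733 and 607 CPM in mutant mice 1, 2 and 3, and 519.6, 603.0 and 574 CPM in WT mice. WT mouse 2 just exceeded the lowest mutant mouse, and the other 2 WT mice lay below all mutant mice. The log2 fold change was 0.20 ± 0.18 (edgeR adjusted p = 0.895), and 0.10 without mutant mouse 2. Idh1 (chromosome 1, 65158616 to 65186479), the cytosolic enzyme, had 55.6, 31.5 and 54.9 CPM in mutant mice and 53.2, 54.1 and 69.3 CPM in WT mice. Mutant mouse 2 was again the low library, and the log2 fold change of -0.31 ± 0.26 (edgeR adjusted p = 0.892) was -0.09 without it. Idh2 FPKM exceeded Idh1 FPKM 15.5-, 33.3- and 15.8-fold in mutant mice 1, 2 and 3, and 14.0-, 16.0- and 11.9-fold in WT mice. Idh2 made up 95.03 ± 1.78% of the summed Idh FPKM in mutant and 93.2 ± 0.94% in WT mice (SD, n = 3 each; exact permutation p = 0.3).

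Asxl1 (chromosome 2, 153345830 to 153404007), an adaptor of the histone deubiquitinase Bap1, had 98.3, 89.0 and 116 CPM in mutant mice 1, 2 and 3, and 111, 64.4 and 101 CPM in WT mice. WT mouse 2 was the low library, and the log2 fold change was 0.14 ± 0.24 (edgeR adjusted p = 0.940). It lies 245 kb before Dnmt3b on chromosome 2, with 4 RefSeq genes between them, and over the 6 libraries the profiles of Asxl1 and Dnmt3b were the closest of any pair among the 10 genes. The root mean square difference of their centred log2 CPM was 0.0799, and WT mouse 2 was the lowest library for both. Genes outside the 10 were closer to each: Brap to Asxl1 (0.0332) and Slc33a1 to Dnmt3b (0.0439). The part of chromosome position in this was not tested. The start regions of Asxl1 and Dnmt3b are shown as the pair whose profiles were closest among the 10, with CpGs in capitals. They are 250 bases on the plus strand of GRCm38.p6 at chr2:153345580-153345829 for Asxl1 and chr2:153649199-153649448 for Dnmt3b. The Dnmt3b window runs past the outer start of the gene coordinates above.
Asxl1: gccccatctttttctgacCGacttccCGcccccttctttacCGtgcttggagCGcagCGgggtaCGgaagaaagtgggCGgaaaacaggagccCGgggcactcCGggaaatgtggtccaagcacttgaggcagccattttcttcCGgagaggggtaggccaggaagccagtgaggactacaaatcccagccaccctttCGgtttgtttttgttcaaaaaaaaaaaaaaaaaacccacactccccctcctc
Dnmt3b: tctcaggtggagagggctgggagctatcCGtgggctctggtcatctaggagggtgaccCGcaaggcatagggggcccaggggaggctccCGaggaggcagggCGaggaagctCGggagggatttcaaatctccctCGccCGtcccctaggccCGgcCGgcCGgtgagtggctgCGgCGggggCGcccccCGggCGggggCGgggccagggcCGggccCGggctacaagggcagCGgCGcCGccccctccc
Asxl1 had 11 CpGs and Dnmt3b 21, and both windows held GGGCGG on either strand. Exons of Asxl1 share 197 bases with 2500004C02Rik on the opposite strand. Its count is uncertain to that extent, since the strand setting of the counting is not given. The same holds for Dnmt3a, which shares 133 bases with Dnmt3aos, and for Tet2, which shares 43 with Gm42567. Dnmt3aos and Gm42567 are no rows of the count tables. Transcripts of Dnmt3b match Dnmt3c, a methyltransferase of the rodent male germline that is no row of the count tables, over 1434 bases at 93.9% identity.

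Npm1 (chromosome 11, 33152498 to 33164142), which shuttles between nucleolus and cytoplasm and serves ribosome assembly, had the highest FPKM of the 10 genes in all mice but mutant mouse 3, where Idh2 was higher. It had 667, 900.1 and 605 CPM in mutant mice 1, 2 and 3, and 539.8, 885 and 623 CPM in WT mice. The mouse numbered 2 was the highest in each group, the reverse of Dnmt1, and the log2 fold change was 0.09 ± 0.25 (edgeR adjusted p = 0.970). Its transcript matches 8 pseudogenes in GENCODE M21 over at least 200 bases at 90% identity or more, of which 0 are rows of the count tables, so its count depends on how shared reads were treated.

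Ordered by FPKM in mutant mice, the genes ran Npm1 (407 ± 58.4 FPKM), Idh2 (369 ± 18.2), Dnmt1 (79.0 ± 15.9), Dnmt3b (44.1 ± 7.24), Idh1 (19.1 ± 6.48), Asxl1 (14.8 ± 2.89), Dnmt3a (14.8 ± 5.06), Tet3 (6.64 ± 1.21), Tet2 (4.62 ± 0.48) and Tet1 (3.90 ± 1.46), all in FPKM with SD and n = 3. In WT mice the order was Npm1 (406 ± 95.01 FPKM), Idh2 (341 ± 16.3), Dnmt1 (91.6 ± 26.2), Dnmt3b (40.0 ± 10.5), Idh1 (24.8 ± 3.89), Dnmt3a (17.4 ± 2.35), Asxl1 (14.2 ± 4.14), Tet3 (5.33 ± 0.88), Tet1 (4.83 ± 0.0954) and Tet2 (4.17 ± 0.63). By these means the first 5 places were the same in both groups. The ranges of Npm1 and Idh2 overlapped in both groups, as did those of Asxl1 and Dnmt3a. Within single mice, Npm1 lay above Idh2 in all 3 WT mice and in mutant mice 1 and 2, and Dnmt3a lay above Asxl1 in all but mutant mouse 2. The ranges of Idh1 and Asxl1 overlapped in mutant mice, as did those of Tet2 and Tet1. In WT mice the ranges of Dnmt3b and Idh1 overlapped, and so did those of the neighbouring Tet genes. Npm1 and Idh2 lay above 98.6% and 98.5% of tested genes in mutant mice, Dnmt1 above 89.0%, and the Tet genes above 28.5% (Tet1) to 37.6% (Tet3).

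The mice numbered 2 held 7 of the 10 lowest values. Of the lowest values among the 6 libraries, 4 were in WT mouse 2 (Dnmt1, Dnmt3b, Tet2, Asxl1), 3 in mutant mouse 2 (Dnmt3a, Tet1, Idh1) and 3 in WT mouse 1 (Tet3, Idh2, Npm1). Of the highest, 6 were in mutant mouse 3. The highest library exceeded the lowest 1.39-fold for Tet2 and 2.20-fold for Idh1, with the other 8 genes between. In mutant mouse 2, Tet1, Idh1 and Dnmt3a stood at 0.530, 0.549 and 0.587 of the mean of the other 5 libraries. Their profiles were close: the root mean square difference of centred log2 CPM was 0.119 between Dnmt3a and Tet1 and 0.134 between Tet1 and Idh1. Tet2 and Tet3 were 0.154 apart, and Npm1 and Tet1 were 0.557 apart.

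Gene length moved with part of this pattern. Tet1, Tet3, Dnmt3a and Tet2 are 14082, 10906, 9947 and 9181 bases long in the deposited tables, whereas Npm1 and Idh2 are 1718 and 1702 bases. When each library's trend of log2 CPM on gene length was removed, the low values of Tet1 and Dnmt3a in mutant mouse 2 shrank to -0.14 and -0.04 log2 units against the WT mean, and that of Idh1, 2438 bases long, stayed at -0.72. On this scale 5 of the 10 genes had all 3 mutant values over all 3 WT values, Tet3, Tet2, Dnmt3b, Asxl1 and Idh2, and 0 had the reverse. Over all genes 19.7% had groups that did not overlap, with 1600 above and 894 below. The median log2 fold change over all genes tested was 0.0806 on this scale. Tet3 and Tet2 lie near the long end of the fitted range, with 1.21% and 2.27% of tested genes longer. The log2 fold changes by limma were 0.65 for Tet3 (adjusted p = 0.335), 0.47 for Tet2 (adjusted p = 0.434), 0.40 for Dnmt3b (adjusted p = 0.420), 0.37 for Asxl1 (adjusted p = 0.449) and 0.21 for Idh2 (adjusted p = 0.524). At an unadjusted p under 0.05, 2 of the 10 passed, Tet3 and Dnmt3b, beside 11.6% of all genes. Mutant mouse 2, whose own trend spanned -0.91 to 0.77 log2 units, was the highest library for all 5 after this correction, at 1.07 log2 units over the WT mean for Tet3.

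**Figure D4:**
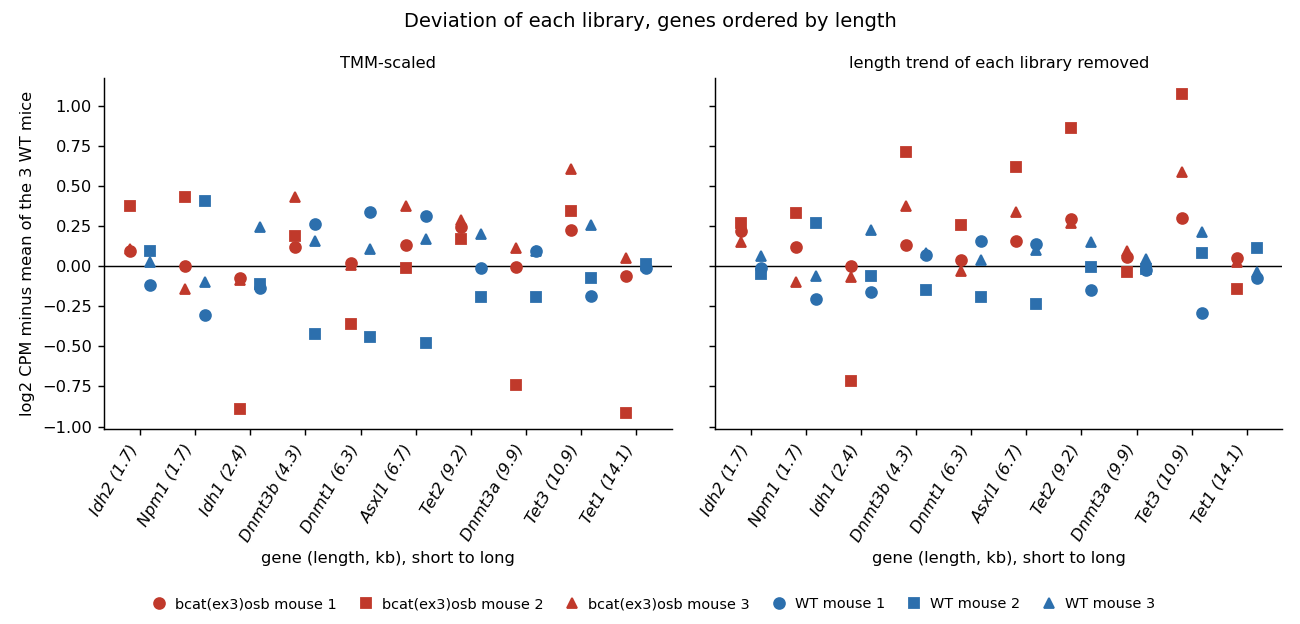
Log2 CPM of each library minus the mean of the 3 WT mice (vertical axes, log2 units), with the genes ordered from short to long. The left panel uses TMM scaling alone and the right panel also removes each library's trend on gene length. Red symbols are bcat(ex3)osb and blue symbols WT mice. Mutant mouse 2 (red square) is low for Idh1, Dnmt3a and Tet1 on the left, and on the right low for Idh1 and high for Dnmt3b, Asxl1, Tet2 and Tet3.

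Over the 6 libraries, each gene had another whose profile was most like it by root mean square difference of centred log2 CPM: Ptpra for Dnmt1 (0.0303), Dcaf12 for Dnmt3a (0.0384), Slc33a1 for Dnmt3b (0.0439), Slc43a1 for Tet1 (0.0293) and Ddx54 for Tet2 (0.0408). For Tet3 it was Tmem50b (0.0743), for Idh1 Zfp871 (0.0631), for Idh2 Mki67ip (0.0397), for Asxl1 Brap (0.0332) and for Npm1 Taldo1 (0.0217). Of the 12653 genes tested, predicted genes with Gm or Rik symbols were left out of this search. Each match was the closest of the remaining genes, and the matches are a description.

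Lists of genes that work beside the 10 are given by their counts and medians; since 0.00% of all genes passed the adjusted test, the counts of 0 passing below are those of the background. Of 9 tested cofactors of maintenance methylation, 3 had positive and 6 negative log2 fold changes, 0 passed, and the median was -0.05. Uhrf1, which brings Dnmt1 to hemimethylated DNA, averaged 389 ± 53.8 CPM in mutant mice and 403 ± 94.6 CPM in their WT littermates (SD, n = 3 each). Its relative Uhrf2 had a log2 fold change of -0.51 ± 0.28 (edgeR adjusted p = 0.814), the RNA methyltransferase gene Trdmt1 one of 0.32 ± 0.26 (adjusted p = 0.883) and Cdca7, which acts with the remodeller Hells, one of 0.11 ± 0.17 (adjusted p = 0.937). The list of methyl-CpG readers and their relatives had 6 positive and 4 negative values of 10 tested, with 0 passing and a median of 0.12. A place in this list does not show that a gene such as Mbd5 binds methylated CpG. The listed genes with the smallest p were Zbtb38 (0.28 ± 0.22, edgeR adjusted p = 0.877), Mbd5 (-0.47 ± 0.37, adjusted p = 0.880) and Mbd4 (-0.23 ± 0.22, adjusted p = 0.898), the last a glycosylase that excises thymine from mismatches at CpG sites.

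Of 14 tested demethylation and base excision genes, 5 had positive and 9 negative values, 0 passed, and the median was -0.06. Of the 14, 2 had groups that did not overlap, beside 14.6% of all genes. Neil1, a glycosylase for oxidised bases, had 13.8, 11.7 and 13.4 CPM in mutant mice and 17.2, 23.0 and 24.3 CPM in WT mice, without overlap. Its log2 fold change was -0.73 ± 0.25, with an edgeR p of 0.0200 before and 0.635 after adjustment. Apobec1, a cytidine deaminase, and Cxxc5, a CpG-binding protein, had -0.33 ± 0.21 (adjusted p = 0.858) and 0.20 ± 0.18 (adjusted p = 0.896). Tdg, the glycosylase that removes the oxidised cytosines made by Tet enzymes, was listed at 0, 0 and 1 counts in mutant and 1, 1 and 0 counts in WT mice. Its transcript matches 5 other genes in GENCODE M21, the longest match being 2968 bases at 98.7% identity with Tdg-ps, and how shared reads were counted is not given, so these counts do not show whether Tdg was expressed.

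The methionine and folate cycles, which supply the methyl donor, had 8 positive and 8 negative values of 16 tested, 0 passing and a median of -0.01. Of the 16, 2 had groups that did not overlap, beside 14.6% of all genes. Ahcyl2, Shmt2 and Mtap had log2 fold changes of -0.87 ± 0.52, 0.31 ± 0.19 and 0.26 ± 0.20 (edgeR adjusted p = 0.848, 0.853 and 0.877). Shmt2 is the mitochondrial serine hydroxymethyltransferase, and its values did not overlap: 363, 498 and 393 CPM in mutant mice and 328, 341 and 347 CPM in WT mice. Of 27 tested genes of α-ketoglutarate metabolism and the citrate cycle, 19 had positive and 8 negative values, where 50.3% of all genes were positive. The median was 0.12 and 0 passed. Dlst, a subunit of the α-ketoglutarate dehydrogenase complex, had 138, 138 and 132 CPM in mutant mice and 99.6, 79.3 and 118 CPM in WT mice, with a difference of 0.46 ± 0.20 on the log2 scale and an edgeR p of 0.0493 before and 0.761 after adjustment. Idh3a, the NAD-dependent counterpart of Idh2, had 235, 288 and 248 CPM in mutant mice, against 194, 202 and 207 CPM in WT mice (0.35 ± 0.17, adjusted p = 0.789), and its partner Idh3b had -0.27 ± 0.19 (adjusted p = 0.870). Without mutant mouse 2 the median of these 27 genes was -0.01.

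The partners of Asxl1 had 2 positive and 7 negative values of 9 tested, 0 passing and a median of -0.07, which was 0.02 without mutant mouse 2. Bap1 had 174, 144 and 193 CPM in mutant mice and 263, 162 and 218 CPM in WT mice (-0.33 ± 0.23, edgeR adjusted p = 0.868), Mbd5 is given above, and the histone demethylase gene Kdm1b had -0.49 ± 0.47 (adjusted p = 0.903). Nucleolar partners of Npm1 had 8 positive values of 9 tested, 0 passing and a median of 0.13. Of the 9, 3 had groups that did not overlap, beside 14.6% of all genes. Npm3, a paralog of Npm1, had 14.2, 16.8 and 12.3 CPM in mutant mice and 9.55, 11.2 and 7.69 CPM in WT mice, without overlap (0.61 ± 0.29, edgeR adjusted p = 0.785). Nolc1 had 0.31 ± 0.18 (adjusted p = 0.851) and the RNA methyltransferase gene Nsun2 0.17 ± 0.20 (adjusted p = 0.915).

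Other genes mutated in myeloid clonal haematopoiesis had 18 positive and 19 negative values of 37 tested, 0 passing and a median of -0.02. At an unadjusted p under 0.05, 2 of the 37 were higher and 0 lower, where 3.43% of all genes were higher and 3.13% lower. One was Cebpa, the granulocyte-monocyte transcription factor, with 42.3, 52.1 and 43.3 CPM in mutant and 18.7, 19.9 and 18.7 CPM in WT mice (1.26 ± 0.20, edgeR adjusted p = 0.292). The other was Calr, an endoplasmic reticulum chaperone, with 1103, 1244 and 813 CPM in mutant and 552, 756 and 772 CPM in WT mice (0.60 ± 0.23, adjusted p = 0.700). Csf3r, which encodes a receptor for a granulocyte growth factor, had -0.66 ± 0.32 (adjusted p = 0.789). Since Dnmt1 and Uhrf1 are made most in S phase, proliferation genes were set beside them: 11 of 22 had positive values, 0 passed and the median was -0.00704. Top2a had -0.48 ± 0.30, Cdt1 0.28 ± 0.18 and Ccne1 0.23 ± 0.22 (edgeR adjusted p = 0.853, 0.860 and 0.903).

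**Figure D5:**
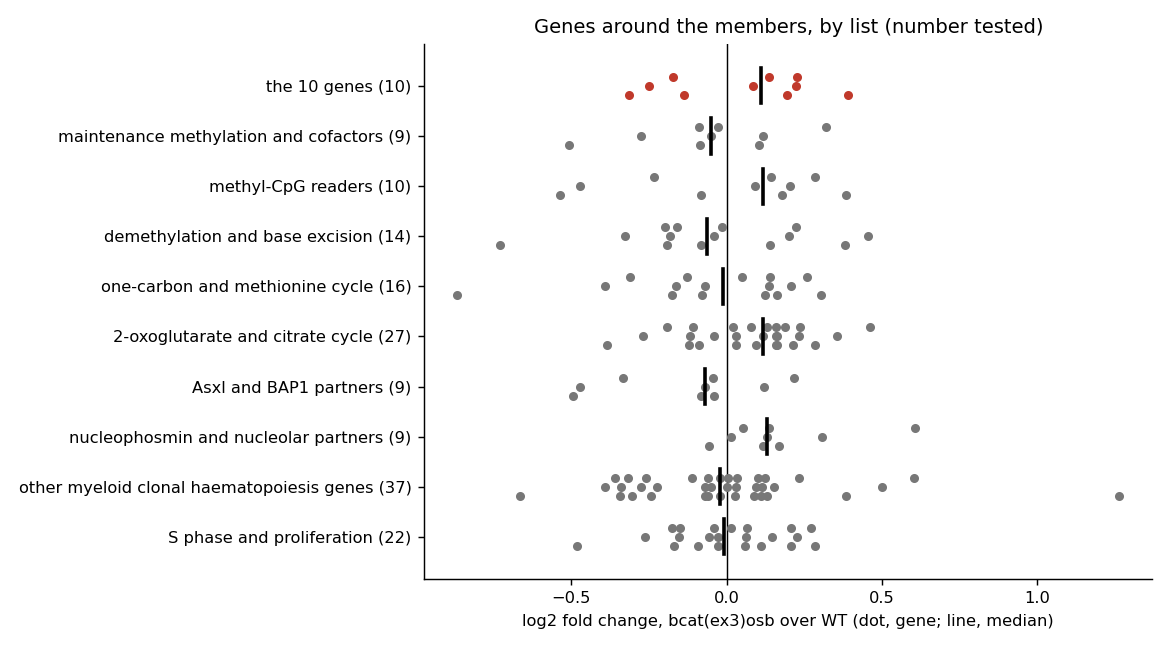
Log2 fold change, bcat(ex3)osb over WT (horizontal axis), of the 10 genes (red) and of the tested genes of each surrounding list with at least 5 tested genes (grey; the germline list is not drawn), with the median as a black line and the number tested in brackets. The medians drawn lie between -0.07 and 0.13, and of the genes drawn Cebpa at 1.26 lies farthest from 0.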

How the data were processed

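RNA of LSK cells from 3 bcat(ex3)osb and 3 WT mice was sequenced from stranded total RNA libraries (TruSeq), per the labels' protocols. The submitters' processing notes name STAR 2.5.2b, featureCounts 1.5.0-p3, bcl2fastq 2.17 and the build mm10; the sources used here do not give the annotation, strand setting or treatment of shared reads. The count tables deposited by the authors hold raw whole numbers for each gene. They also deposited FPKM, which equalled counts over gene length and library total within 0.005, and the gene length in bases.

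Differences were tested on the counts in edgeR 4.0.16 under R 4.3.3 (filterByExpr, minimum count 10 and minimum total 15, 12653 of 23420 genes kept; TMM; genotype as the only term; quasi-likelihood F test, two-sided; Benjamini-Hochberg over all genes tested; threshold 0.05). Standard errors and 95% intervals of fold changes come from that fit. The log2 CPM used a prior count of 1. Family shares used an exact permutation test over the 20 assignments of mice. Alternatives were other scalings, DESeq2 1.42.0, limma-voom, limma 3.58.1 on log2 FPKM plus 1 or 0.1, other filters, removal of each library's loess trend on length, the mouse number as a block, the 4 female mice and leaving out each mouse. The removal of both libraries numbered 2 was added after the data were seen. The procedure was tested on simulated counts.

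The 10 genes and the lists were chosen with earlier results of these data known. The rule for the 10 genes named symbols and used no measured value. All 10 are named, with the 3 of smallest p from each list and the most alike gene of each; Uhrf1, Tdg, Cd34, Flt3, Mpo, Retnlg, Cd5l and Dazl fall outside this rule and were named after their values were seen. Gene coordinates are RefSeq's on GRCm38.p6, the assembly that mm10 names, and all 10 symbols matched. Similar transcripts were sought with blastn 2.17.0 in GENCODE M21. Total counts were 15431235 to 19956774 per library. Same-numbered mice deviated together with correlations of 0.11, 0.34 and 0.0567, under 0.1 for 1 of 3, and were not treated as pairs.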

Additional observations from a re-analysis of the deposited data

How the results depend on the processing

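No setting brought any of the 10 genes past an adjusted p of 0.05 among the 18 run; the lowest adjusted p was 0.312, for Tet3 with the mouse number as a replicate block. Dnmt3b, Tet2, Tet3, Idh1 and Idh2 had the same direction in all 18. With the length trend removed, Dnmt1 was 0.0885 and Dnmt3a 0.0376, beside a median of 0.0806 over all genes tested. In the 4 female mice, where mutant mouse 3 stands alone and is assumed to vary like the WT mice, Dnmt3a was 0.0879, Tet1 0.0327 and Npm1 -0.19. Leaving out 1 mouse each gave -0.33 to 0.0395 for Dnmt1, -0.33 to 0.0484 for Dnmt3a, -0.0669 to 0.29 for Asxl1 and -0.10 to 0.32 for Npm1; the changes of sign came without WT mouse 1 (Dnmt1, Npm1), mutant mouse 2 (Dnmt3a, Npm1) and WT mouse 2 (Asxl1). The cause was not tested.

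Over all genes, calls numbered 0 higher and 0 lower by edgeR and 106 higher and 77 lower by DESeq2. There was 1 higher with the length trend removed, and 5 higher and 0 lower with the replicate block. Same-numbered mice did not each correlate best with their own number. Leaving out 1 mouse gave 0 to 4 higher (4 without mutant mouse 3) and 0 to 13 lower (13 without mutant mouse 1).

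Of list medians, methyl-CpG readers moved to -0.00880 in the 4 female mice, and α-ketoglutarate and citrate cycle genes to -0.0706 there and 0.00906 without both libraries numbered 2. S phase genes moved to -0.16 in the 4 female mice, where the median over all genes was -0.0335. Nucleolar partners of Npm1 moved to 0.0490 on log2(FPKM + 1) and 0.0492 on log2(FPKM + 0.1). The median over all genes tested was -0.0640 and -0.0810 on these scales. With the length trend removed, the median over all genes tested was itself 0.0806. On that scale, medians were 0.22 for nucleolar partners and 0.12 for the methionine and folate cycles. They were 0.15 for the other clonal haematopoiesis genes and 0.13 for S phase genes. Leaving out 1 mouse moved readers to between 0.00575 and 0.23 and the citrate cycle to between -0.0114 and 0.14. It also turned the sign of the medians of maintenance cofactors (-0.0953 to 0.0423), demethylation genes (-0.15 to 0.0600), the methionine and folate cycles (-0.0234 to 0.0703), Asxl1 partners (-0.25 to 0.0178), other clonal haematopoiesis genes (-0.0794 to 0.00186) and S phase genes (-0.0665 to 0.0671). No family share changed by more than its spread. Germline genes had 2 tested members, so no median was recomputed.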

Other observations

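A list of germline genes that are silenced by promoter methylation in other tissues was mostly silent: of 13 genes, 9 had 0 counts in all mutant libraries and 8 in all WT libraries, and 2 were tested, of which 0 passed. Ddx4, a germ cell RNA helicase, had 256, 45 and 303 counts in mutant mice 1, 2 and 3, and 1082, 711 and 824 counts in WT mice 1, 2 and 3. All mutant values lay below all WT values, where 14.6% of all genes had groups that did not overlap. The log2 fold change was -2.05 ± 0.55 (SE), with an edgeR p of 0.00564 before and 0.488 after adjustment. Dazl, a germ cell RNA-binding protein, was listed at 0 in each mutant mouse, against 13, 2 and 4 counts in WT mice, too few to be tested. Tex11, an X-linked meiosis gene, had 20, 50 and 31 counts in mutant mice and 0, 7 and 3 in WT mice, or 3.35 ± 1.09 on the log2 scale, and the edgeR p was 0.0152 before and 0.583 after adjustment. Mutant mice 1 and 2 were male and the WT mice female, and the part of sex in these values was not tested.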
